A study of Mus musculus with 62 samples.

Results

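The effect of APP/PS1 transgenes, which model Alzheimer's disease, was followed in brain CD11b+ cells of mice at 4 months of age, pooling mice that have and mice that lack Nlrp3. The members were chosen by genotype and age alone: 15 of the 62 RNA-seq libraries, of which 7 carried the transgenes and 8 did not. The groups were 4 wild-type libraries (WT, replicates 1, 4, 5 and 7), 4 libraries lacking Nlrp3 (NLRP3, replicates 8, 10, 12 and 15), 3 libraries with the APP/PS1 transgenes and intact Nlrp3 (APPPS1, replicates 2, 3 and 6) and 4 with the transgenes and without Nlrp3 (APPPS1_NLRP3, replicates 9, 11, 13 and 14). Replicates are named by the last of the 3 numbers in their titles. All were mice of 4 months, and no treatment is named in the labels. The labels name neither the APP/PS1 line nor the promoter that drives its transgenes, and do not say whether each library came from its own animal, so the p-values reflect the spread between these libraries alone, which may be technical.

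Microglia are the resident macrophages of the brain and express CD11b (Itgam), as do other myeloid cells, so the sort does not separate them. Around amyloid plaques microglia take up a state, often called disease-associated, that depends on the lipid-sensing receptor Trem2 and its adaptor Tyrobp. In that state genes of lipid handling, lysosomes and phagocytic receptors are raised, and resting markers such as P2ry12, Tmem119 and Cx3cr1 are lowered. Nlrp3 is the sensor of an inflammasome, the complex that activates caspase-1 and releases interleukin-1β.

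The 15 libraries held 15502415 to 24645302 counts (median 18438698), and every one showed the expression of a female by Xist and Y-linked genes. Nlrp3 lay at 59.9 to 125 CPM (counts scaled to library size) in the 7 libraries with intact Nlrp3 and at 0.203 to 1.36 CPM in the 8 without it, as labelled. The mean level of P2ry12 was 6472 CPM, of Cx3cr1 4635 CPM and of Tmem119 2463 CPM in the libraries without transgenes, so the defining microglial genes were present. Other cells were present too: NLRP3 replicate 15 held 2402 CPM of pituitary markers against at most 0.897 CPM in the other 14 libraries, and NLRP3 replicate 8 held 445 CPM of neuron markers against 53.2 to 89.4 CPM in the other 3 of its group. In these cell suspensions, fewer cells of a type and less RNA per cell cannot be told apart.

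The comparison of the 7 transgenic with the 8 nontransgenic libraries asks which genes differed early, at 4 months, with the Nlrp3 backgrounds pooled. A call here does not mean a difference in each background. Levels were higher for 42 genes and lower for 2 in the transgenic libraries, out of 17947 genes tested (0.245% of all, 0.234% higher and 0.0111% lower; edgeR's quasi-likelihood test with terms for Nlrp3 and the second title number, Benjamini-Hochberg adjusted p under 0.05). Cst7, an inhibitor of lysosomal cysteine proteases, and Lpl, which releases fatty acids from lipoproteins, had the smallest p-values. The other rises included the receptors Clec7a, Axl and Itgax, lysosomal hydrolases, enzymes of cholesterol and serine metabolism, Igf1 and Prnp. The falls were Spry1 and Id2. Of the 44 genes 18 differed by a log2 difference of at least 1, 13 rose by less than 0.5, and the median rise was 0.91 on the log2 scale against a median of 0.0040 over all genes tested.

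In 25 of the 44 genes the transgenic and nontransgenic libraries did not overlap, whereas over all genes 32 (0.178%) lay higher and 6 (0.0334%) lower without overlap. At an unadjusted p under 0.05, 1067 genes were higher (5.95%) and 846 lower (4.71%). The 44 genes lay on 15 chromosomes, with at most 5 on 1 of them, chromosome 7. The count rested on single libraries: it was 23 without APPPS1 replicate 6, 26 without APPPS1 replicate 3, 28 without APPPS1_NLRP3 replicate 13 and 67 without APPPS1 replicate 2. The 21 genes called without each library in turn were Cst7, Lpl, Ank, Clec7a, Axl, Baiap2l2, Cpd, Itgax, Ptchd1, Psat1, Spry1, Prnp, Ch25h, Capg, Etl4, Prdx4, Apbb2, Gusb, Egln3, Myo1e and Rab7b, and the other 23 lost their call without at least 1 library. The count fell to 6 when the fit also took in the first title number, whose meaning the labels do not give. There Cst7, Lpl, Ank, Clec7a and Axl stayed called. Each further value of that number adds a term, which left fewer residual degrees of freedom than the 11 of the main fit. With DESeq2 the count rose to 154 (43 of the 44 among them).

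**Figure D1:**
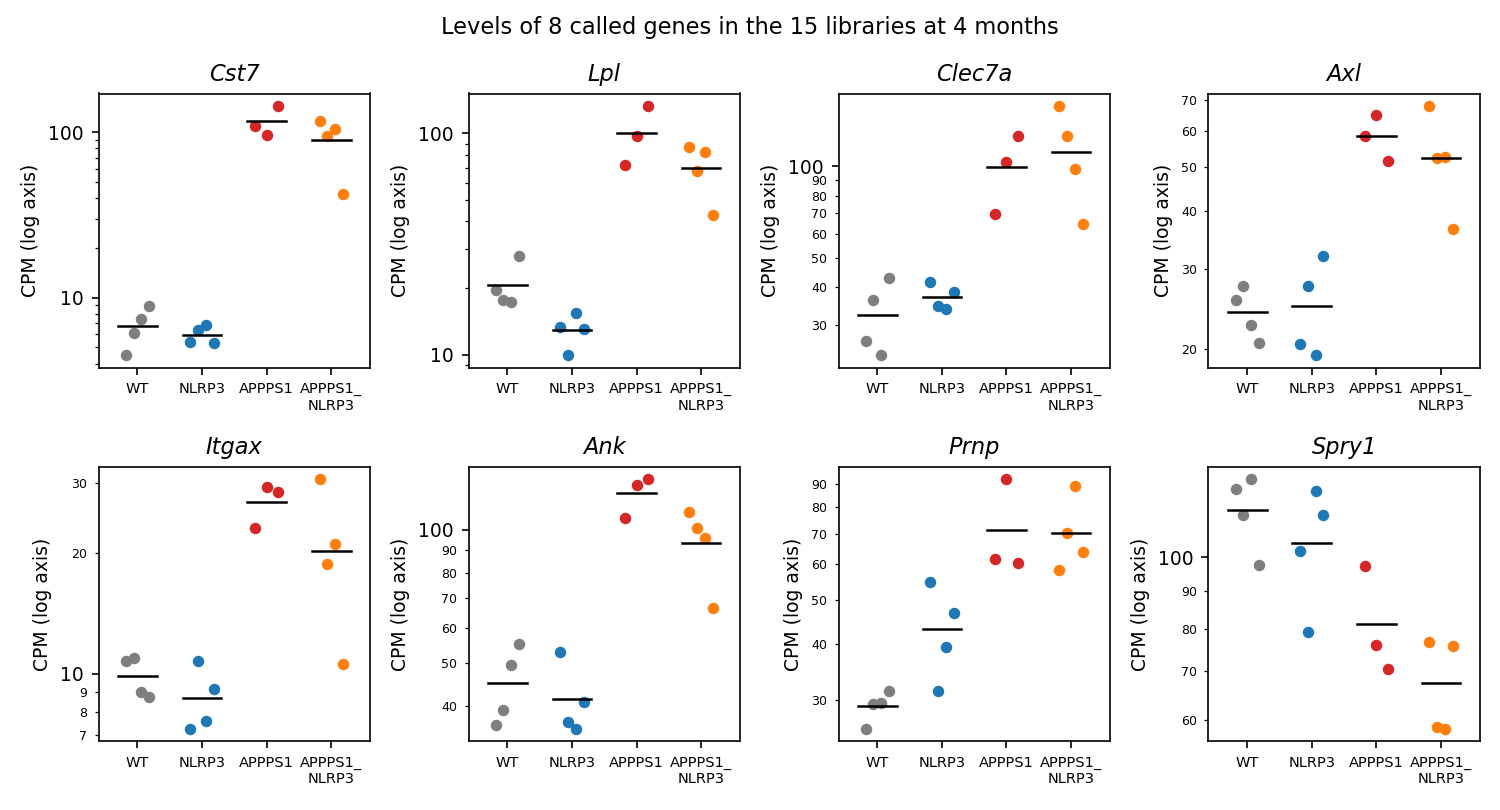
Levels of 8 genes that differed with the transgenes at 4 months, in CPM on a log axis, with a point for each of the 15 libraries by group and a line at each group's mean. Cst7, Lpl, Clec7a, Axl, Ank and Prnp were higher in every transgenic library than in every nontransgenic one, while the libraries of Itgax and Spry1 overlapped.

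Cst7 encodes cystatin F (ENSMUSG00000068129, chr2:150570415-150578944, plus strand, mm10). Its levels by library, in the replicate order given above, were 4.48, 6.15, 7.46 and 8.94 CPM in WT, 5.42, 6.33, 6.84 and 5.33 CPM in NLRP3, 109, 95.5 and 144 CPM in APPPS1 and 116, 94.6, 105 and 42.2 CPM in APPPS1_NLRP3. The lowest transgenic library, APPPS1_NLRP3 replicate 14, was above the highest nontransgenic one, WT replicate 7. The means were 6.37 ± 1.397 CPM (mean ± SD, n = 8) without transgenes and 101 ± 30.7 CPM (n = 7) with them, a log2 rise of 4.02 ± 0.18 (SE; adjusted p = 1.44e-09). Lipoprotein lipase, Lpl (ENSMUSG00000015568, chr8:68880491-68907448, plus strand), lay at 19.7, 17.7, 17.3 and 28.04 CPM in WT, 13.3, 9.92, 15.4 and 13.1 CPM in NLRP3, 71.8, 96.9 and 133 CPM in APPPS1 and 87.1, 67.7, 82.1 and 42.9 CPM in APPPS1_NLRP3. Here too the groups did not overlap, and Lpl rose by 2.38 ± 0.16 on the log2 scale (adjusted p = 3.00e-07), with means of 16.8 ± 5.49 CPM (mean ± SD, n = 8) without transgenes and 83.1 ± 27.9 CPM (n = 7) with them. APPPS1_NLRP3 replicate 14 was the lowest transgenic library for both genes, and was so for 20 of the 42 rises.

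Receptors and adhesion molecules of the cell surface came next. Clec7a, the β-glucan receptor Dectin-1 (ENSMUSG00000079293, chr6:129461591-129472779, minus strand), lay at 26.7, 36.4, 23.9 and 42.9 CPM in WT, 41.7, 34.8, 33.9 and 38.7 CPM in NLRP3, 69.6, 103 and 126 CPM in APPPS1 and 158, 126, 97.7 and 64.6 CPM in APPPS1_NLRP3. It rose by 1.62 ± 0.17 (adjusted p = 0.000143), without overlap of the libraries. Axl is a receptor tyrosine kinase that takes part in the clearance of dying cells (ENSMUSG00000002602, chr7:25757273-25788705, minus strand), and its levels ran from 19.4 to 32.03 CPM (median 24.1) without transgenes and 36.6 to 68.1 CPM (median 52.7) with them. All 7 transgenic libraries lay above the others, and the rise was 1.17 ± 0.13 (adjusted p = 0.000333). Itgax, the integrin chain CD11c (ENSMUSG00000030789, chr7:128129547-128150657, plus strand), rose by 1.34 ± 0.17 (adjusted p = 0.00139), with levels of 7.26 to 10.95 CPM (median 9.08) without transgenes and 10.6 to 30.7 CPM (median 23.1) with them. Its libraries overlapped, since APPPS1_NLRP3 replicate 14 at 10.6 CPM fell below WT replicates 1 and 4 and NLRP3 replicate 10. The sialic acid lectin Siglecf rose by 0.48 ± 0.095 (adjusted p = 0.0457). The inhibitory receptors Cd5 and Pdcd1, best known from lymphocytes, rose by 1.77 ± 0.34 and 1.12 ± 0.21 (adjusted p = 0.0352 and 0.0355) at low levels, 0.181 to 0.739 CPM without transgenes and 0.757 to 2.18 CPM with them for Cd5. Summed markers of T and NK cells lay at 14.1 to 34.6 CPM without transgenes and 9.82 to 18.1 CPM with them. Among these 6 genes, Cd5, Pdcd1 and Siglecf lost their calls without single libraries (without 11, 10 and 12 of the 15).

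Among genes of lipids and sterols, Ch25h, which makes 25-hydroxycholesterol (ENSMUSG00000050370, chr19:34473778-34475164, minus strand), ran from 1.15 to 2.78 CPM (median 1.76) without transgenes and 2.18 to 8.73 CPM (median 5.25) with them. The libraries overlapped through APPPS1_NLRP3 replicate 14, and the rise was 1.67 ± 0.25 (adjusted p = 0.00497). Gm26902, annotated as a noncoding RNA from the other strand of the same start region, rose by 1.71 ± 0.29 (adjusted p = 0.0141). Its exons overlap those of Ch25h and the libraries do not mark strand, so their reads cannot be told apart there. Nceh1, a cholesterol ester hydrolase, rose by 0.43 ± 0.075 (adjusted p = 0.0179) and Acaca, the acetyl-CoA carboxylase of fatty acid synthesis, by 0.69 ± 0.13 (adjusted p = 0.0392). Gm26902 lost its call without APPPS1 replicate 6 (adjusted p = 0.0702), Nceh1 without APPPS1 replicates 3 or 6 or APPPS1_NLRP3 replicate 13, and Acaca without any of 12 libraries. Of the list of lipid transport and storage 1 of 23 genes, Lpl, was called (7 at an unadjusted p under 0.05, all higher). Of cholesterol synthesis 0 of 22 were called by edgeR (5 unadjusted, all higher) and 0 by DESeq2. The medians of these 2 lists were 0.093 and 0.15. Among all genes tested, 0.234% were called higher and 5.95% were higher unadjusted.

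Several lysosomal genes rose, Gusb, Glb1, Pld3 and Cd63 by less than 0.5 on the log2 scale. Gusb, β-glucuronidase (ENSMUSG00000025534, chr5:129989011-130003049, minus strand), ran from 266 to 314 CPM (median 293) without transgenes and 307 to 389.8 CPM (median 351) with them and rose by 0.28 ± 0.043 (adjusted p = 0.00519). One transgenic library, APPPS1_NLRP3 replicate 14, lay within the nontransgenic range. Glb1, β-galactosidase, rose by 0.26 ± 0.044 (adjusted p = 0.0126), with levels of 81.8 to 91.4 CPM without transgenes and 95.4 to 113 CPM with them. Cathepsin E, Ctse, rose by 1.37 ± 0.24 (adjusted p = 0.0202) with levels of 0.4404 to 1.101 CPM without transgenes and 1.28 to 2.17 CPM with them. The nuclease Pld3 and the tetraspanin Cd63 rose by 0.27 ± 0.048 and 0.32 ± 0.061 (adjusted p = 0.0253 and 0.0315). Rab7b, a GTPase of late endosomes, rose by 0.89 ± 0.15 (adjusted p = 0.0141) with overlapping libraries. On the lysosome list 3 of 30 genes were called, Gusb, Ctse and Cd63, and 12 were higher and none lower at an unadjusted p under 0.05, with a median of 0.099. The shares over all genes tested were 0.234% called higher and 5.95% higher unadjusted. Hexa, a subunit of β-hexosaminidase, lay at 891 to 990.1 CPM without transgenes and 995 to 1299 CPM with them without overlap, a log2 difference of 0.26 ± 0.059 that did not pass (adjusted p = 0.116). Glb1 lost its call without APPPS1 replicate 6 (adjusted p = 0.0587), Ctse without APPPS1 replicate 6, NLRP3 replicates 10 or 12 or APPPS1_NLRP3 replicate 13, and Pld3 and Cd63 without 7 and 10 of the 15 libraries.

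Enzymes and secreted factors formed another set. Psat1, the aminotransferase of serine synthesis (ENSMUSG00000024640, chr19:15904678-15947337, minus strand), lay at 19.8, 21.6, 25.8 and 27.4 CPM in WT, 30.1, 28.8, 19.97 and 27.5 CPM in NLRP3, 56.2, 52.1 and 51.3 CPM in APPPS1 and 35.7, 43.9, 58.5 and 35.2 CPM in APPPS1_NLRP3. Every transgenic library was above every other, and the rise was 0.93 ± 0.13 (adjusted p = 0.00304). Egln3, a prolyl hydroxylase that senses oxygen, rose by 1.99 ± 0.31 (adjusted p = 0.00575), with levels of 0.3203 to 1.6 CPM (median 0.746) without transgenes and 2.01 to 4.41 CPM (median 3.04) with them. The membrane carboxypeptidase Cpd rose by 0.64 ± 0.076 (adjusted p = 0.000647), with means of 57.8 ± 7.62 CPM (mean ± SD, n = 8) without transgenes and 88.4 ± 12.3 CPM (n = 7) with them. Prdx4, a peroxiredoxin of the endoplasmic reticulum, rose by 0.39 ± 0.059 (adjusted p = 0.00519). Igf1, insulin-like growth factor 1, had means of 13.8 ± 2.86 CPM (mean ± SD, n = 8) without transgenes and 22.5 ± 3.795 CPM (n = 7) with them and rose by 0.71 ± 0.12 (adjusted p = 0.0127). The chemokine Ccl6 rose by 0.69 ± 0.12 (adjusted p = 0.0215). Cox6a2, a cytochrome oxidase subunit known from muscle, rose by 1.14 ± 0.21 (adjusted p = 0.0272) at 0.718 to 1.72 CPM without transgenes and 2.17 to 3.31 CPM with them. Igf1 lost its call without APPPS1 replicate 6 (adjusted p = 0.0522), and Ccl6 and Cox6a2 without 6 and 10 of the 15 libraries. Adssl1, of purine synthesis, and Colgalt1, which glycosylates collagen, rose by 0.49 ± 0.097 and 0.27 ± 0.054 (adjusted p = 0.0457 and 0.047) and lost their calls without 13 and 12 libraries.

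Genes of the membrane, the cytoskeleton and the nucleus were also among the 44. Ank, which exports pyrophosphate and ATP (ENSMUSG00000022265, chr15:27466677-27594909, plus strand), had means of 43.3 ± 8.06 CPM (mean ± SD, n = 8) without transgenes and 105 ± 21.1 CPM (n = 7) with them and rose by 1.29 ± 0.12 (adjusted p = 5.59e-05) without overlap. Baiap2l2 binds membranes and actin, and lay at 0 to 0.405 CPM (median 0.157) without transgenes and 1.58 to 3.97 CPM (median 2.51) with them. At a log2 rise of 4.22 ± 0.51 (adjusted p = 0.000647) it was near 0 without transgenes and present in all 7 transgenic libraries. Ptchd1, a membrane protein of the patched family, rose by 1.17 ± 0.16 (adjusted p = 0.00217), and Etl4 by 1.47 ± 0.22 (adjusted p = 0.00502), both without overlap. Apbb2, an adaptor that binds the tail of App, rose by 0.43 ± 0.065 (adjusted p = 0.00519). The actin and myosin genes Capg and Myo1e rose by 0.77 ± 0.11 and 0.76 ± 0.12 (adjusted p = 0.00497 and 0.00834). Coro1c, Tln2, the mitotic kinesin Kif2c, the polymerase III factor Gtf3c4 and Gm26716 rose by 0.24, 0.36, 0.998, 0.34 and 0.51, with adjusted p from 0.0272 to 0.039, and each lost its call without 7 to 12 libraries. Gm11868, a processed pseudogene (ENSMUSG00000050550, chr4:18844202-18845679, minus strand), lay at 4.01, 3.23 and 3.92 CPM in the 3 APPPS1 libraries and at 0 in the other 12, APPPS1_NLRP3 included. In APPPS1 it was at least 88.6-fold higher than in WT, against a floor of 3 counts over the WT group. The pooled edgeR fit called it (adjusted p = 0.0167), a call that rests on APPPS1 alone. It lost its call without APPPS1 replicates 3 or 6 (up to 0.117). Exons of 12 of the 44 genes overlap another gene, 9 of them on the other strand alone (among them Ptchd1, Spry1, Etl4, Coro1c, Cox6a2, Gm26716 and Colgalt1), and reads of such overlaps cannot be assigned to a strand here.

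Prnp, the prion protein gene (ENSMUSG00000079037, chr2:131909928-131938429, plus strand), lay at 25.95, 29.5, 29.6 and 31.5 CPM in WT, 54.8, 31.5, 39.3 and 46.8 CPM in NLRP3, 61.5, 92.2 and 60.3 CPM in APPPS1 and 58.1, 70.4, 89.1 and 63.8 CPM in APPPS1_NLRP3. NLRP3 replicate 8 was the highest nontransgenic library and stayed below all 7 transgenic ones. It also held the most neuron markers of all libraries at 4 months (444.9 CPM). The highest Prnp levels, in APPPS1 replicate 3 and APPPS1_NLRP3 replicate 13, came with 316.7 and 379.8 CPM of these markers. APPPS1_NLRP3 replicates 9 and 14, at 65 and 414.5 CPM, had Prnp at 58.1 and 63.8 CPM. The part of neuron RNA in Prnp was not tested beyond the fits given below. Prnp was not called with the summed immediate-early genes as a further term. The rise was 0.98 ± 0.14 (adjusted p = 0.00394), with means of 36.1 ± 10.04 CPM (mean ± SD, n = 8) without transgenes and 70.8 ± 14.2 CPM (n = 7) with them. Promoters of Prnp and of Thy1 drive the transgenes of some APP/PS1 lines, and whether reads of a transgene count towards either gene here was not tested. Thy1 lay at 0 to 1.23 CPM without transgenes and 0.0543 to 0.946 CPM with them, a difference of 0.51 ± 0.63 (adjusted p = 0.817). App itself differed by 0.19 ± 0.059 (adjusted p = 0.298) and did not pass the threshold. Of the list of App processing and amyloid degradation 1 of 17 genes, Prnp, was called (6 higher at an unadjusted p under 0.05, none lower). Among all genes tested, 0.234% were called higher, and 5.95% were higher and 4.71% lower unadjusted. Prnp also shares exons with Prn on the same strand, and how the authors' counting split such reads is not given in the sources used here.

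The 300-base promoter windows (250 bases before to 50 after a start, RefSeq, GRCm38.p6) of Cst7, Itgax and Prnp are shown. They are among the 7 called genes whose window holds TGANTCA, and are shown for that match. With C or G at N these are the letters of the common AP-1 site, as in Prnp and Itgax, while Cst7 has TGATTCA. The capitals mark the matches, and Prnp also has TATAAA, read on the other strand as TTTATA.
Cst7 (chr2:150570165-150570464, plus strand): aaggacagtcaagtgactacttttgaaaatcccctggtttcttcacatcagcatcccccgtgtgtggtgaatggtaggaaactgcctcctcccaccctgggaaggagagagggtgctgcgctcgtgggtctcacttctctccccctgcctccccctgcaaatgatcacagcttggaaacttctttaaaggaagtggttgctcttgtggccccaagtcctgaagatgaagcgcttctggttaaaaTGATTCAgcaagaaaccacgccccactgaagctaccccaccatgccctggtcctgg
Itgax (chr7:128129300-128129599, plus strand): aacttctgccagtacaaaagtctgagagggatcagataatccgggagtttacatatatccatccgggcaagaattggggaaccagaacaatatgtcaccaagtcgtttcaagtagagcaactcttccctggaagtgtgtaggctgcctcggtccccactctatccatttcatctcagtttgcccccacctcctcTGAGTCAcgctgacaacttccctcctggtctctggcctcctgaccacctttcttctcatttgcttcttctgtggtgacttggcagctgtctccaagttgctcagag
Prnp (chr2:131909678-131909977, plus strand): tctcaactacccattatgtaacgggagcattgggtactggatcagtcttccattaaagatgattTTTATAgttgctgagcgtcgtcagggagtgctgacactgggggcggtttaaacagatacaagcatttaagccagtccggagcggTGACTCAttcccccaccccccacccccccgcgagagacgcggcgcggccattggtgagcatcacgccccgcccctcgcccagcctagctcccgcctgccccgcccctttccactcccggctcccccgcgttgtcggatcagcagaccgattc
Windows were found for 35 of the 44 genes, 41 windows in all. TGANTCA on either strand was in 7 of them (17.1%; Cst7, Itgax, Prnp, Glb1, Igf1, Bcl2a1d and Adssl1) and in 7.81% of the 32851 windows of all genes. The letters CACGTG were in 4 (9.76%, against 7.15%), GAGGAAGT in 4 (9.76%, against 3.2%) and TATAAA in 5 (12.2%, against 13.6%), again on both strands. None of the 4 patterns lies within another. A match describes the letters only.

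The falls were Spry1, an inhibitor of growth factor receptor signalling (ENSMUSG00000037211, chr3:37639947-37644598, plus strand), and Id2, which blocks helix-loop-helix transcription factors. Spry1 ran from 79.3 to 128 CPM (median 114) without transgenes and 58.4 to 97.4 CPM (median 75.7) with them, and the libraries overlapped. It fell by 0.598 ± 0.084 on the log2 scale (adjusted p = 0.00315). Id2 fell by 0.43 ± 0.084 (adjusted p = 0.0457), with levels of 271 to 469 CPM (median 387) without transgenes and 205 to 318 CPM (median 286) with them, and lost its call without any of 12 libraries. Spry1 kept its call without each library in turn. Neither Spry1 nor Id2 was called once the fit also took in the summed immediate-early genes. In that fit 36 of the 44 genes lost their call and 0 reversed. Immediate-early genes were themselves mostly lower with transgenes (median −0.50, 17 of 26 at an unadjusted p under 0.05, 0 called). At that unadjusted p 4.71% of all genes tested were lower. Their part in these falls was not tested further.

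The genes closest to the threshold on its other side, chosen by p, were Tlr2 (0.26 ± 0.053, adjusted p = 0.0551), Smad7 (−0.41 ± 0.083), Il4i1 (0.81 ± 0.17), Chst2 (0.71 ± 0.15), Sdc3 (0.47 ± 0.099), Pkm (0.23 ± 0.049), Cenpa (0.49 ± 0.104), Fam20c (0.96 ± 0.203), Tcap (2.33 ± 0.49) and Cd52 (0.46 ± 0.099, adjusted p = 0.0772). Tlr2 is a receptor for bacterial lipoproteins and Smad7 an inhibitor of TGF-β signalling. The libraries of all 10 genes overlapped.

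The list of disease-associated microglia had 12 of its 41 genes called, all higher: Cst7, Lpl, Ank, Clec7a, Axl, Baiap2l2, Itgax, Ch25h, Igf1, Ccl6, Cox6a2 and Cd63. A further 14 of its genes were higher at an unadjusted p under 0.05 without passing the adjustment, 26 in all and none lower, and the median of the list was 0.29. Over all genes tested 0.234% were called higher, and 5.95% were higher and 4.71% lower at an unadjusted p under 0.05. The list was assembled with earlier results of these data known and is not independent evidence. Central members did not pass: Apoe, the lipoprotein carrier, differed by 0.14 ± 0.1 (adjusted p = 0.654), Trem2 by 0.076 ± 0.072 (0.746), Tyrobp by 0.204 ± 0.072 (0.323), Ctsd by 0.23 ± 0.072 (0.297), Ctsb by 0.24 ± 0.055 (0.116), Csf1 by 0.36 ± 0.12 (0.319) and Hif1a by 0.29 ± 0.063 (0.0914). Apoe ran from 816 to 1913 CPM (median 1247) without transgenes and 1191 to 1775 CPM (median 1393) with them, and its groups overlapped. None of the 24 homeostatic genes was called by edgeR (3 lower and none higher unadjusted, and 0 by DESeq2), with a median of −0.012. P2ry12 differed by −0.14 ± 0.056 (0.414), Tmem119 by −0.13 ± 0.068 (0.513) and Cx3cr1 by 0.035 ± 0.058 (0.873), the last with opposite signs across settings.

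**Figure D2:**
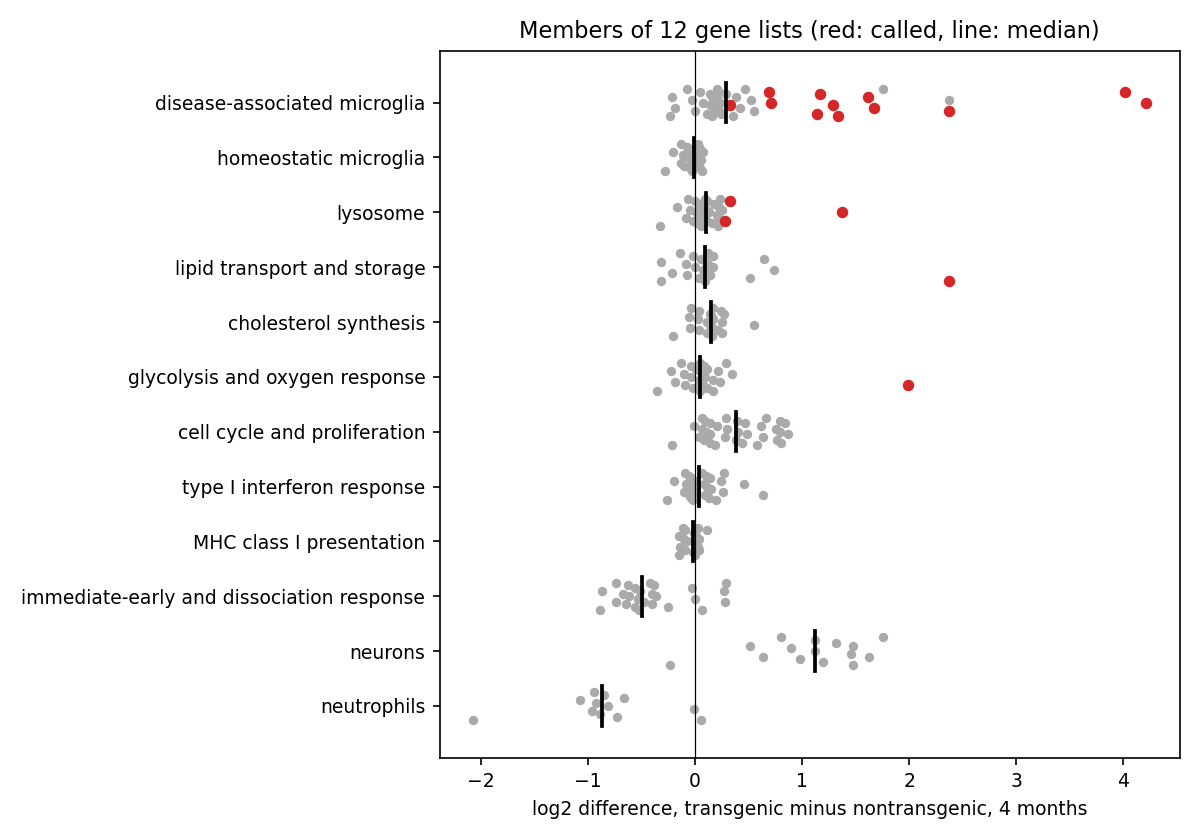
Log2 difference of each tested member of 12 gene lists, transgenic minus nontransgenic at 4 months, with called members in red and a line at each list's median. Called members stand mainly in the disease-associated and lysosome lists, and the proliferation and neuron lists lie above 0 with no called member.

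Inflammatory lists had no called gene by edgeR, though the called chemokine Ccl6 is on none of them. Of all genes tested, 0.234% were called higher, and 5.95% were higher and 4.71% lower at an unadjusted p under 0.05. For NF-kB cytokines and chemokines 0 of 25 were called (4 higher and 3 lower unadjusted, median 0.049), for inflammasome and IL-1 genes 0 of 25 (2 and 3, median 0.039), for the type I interferon response 0 of 28 (1 and 0, median 0.036), for MHC class I 0 of 18 (0 and 0, median −0.015) and for MHC class II 0 of 13 (0 and 0, median −0.097). DESeq2 called 1 gene of each of the first 2 lists and 0 of the other 3. Il1b differed by 0.37 ± 0.12 (adjusted p = 0.312), and Ccl3 and Ccl4 by −0.23 ± 0.14 and −0.21 ± 0.14. On the Trem2 signalling and phagocytic receptor list Clec7a and Axl of 28 genes were called, on the complement list Itgax of 18, and on the Bcl2 list Bcl2a1d of 17. Of metabolic lists, 1 of 28 glycolysis and oxygen response genes (Egln3; 6 higher unadjusted, median 0.046), 1 of 25 serine, glutamine and one-carbon genes (Psat1; 6 higher and 1 lower, median 0.12) and 0 of 30 oxidative phosphorylation genes (0 higher and 1 lower) were called. None of 26 ribosomal protein genes (0 and 0 unadjusted) and none of 19 stress response genes (1 and 3) was called, and DESeq2 also called 0 of these last 3 lists. Igf1 was the called gene among 16 growth factors.

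The cell cycle list had many small differences and no call. By edgeR 0 of its 33 genes were called, 31 lay above 0, 18 were higher at an unadjusted p under 0.05 and none was lower, with a median of 0.39. DESeq2 called 4 of them. The mitotic kinesin gene Kif2c, which was called, and Cenpa, close to the threshold, are not on this list. Over all genes tested 5.95% were higher at an unadjusted p under 0.05. Top2a, the replication topoisomerase, differed by 0.8 ± 0.19 (adjusted p = 0.12) with means of 9.102 to 15.7 CPM. The replication factor Mcm2 differed by 0.44 ± 0.102 (adjusted p = 0.112), Tpx2 by 0.75 ± 0.19 (0.145) and Kif11 by 0.87 ± 0.23 (0.184), both spindle proteins. The summed level of the list was 424 to 503 CPM without transgenes and 467 to 588 CPM with them, with overlap.

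Markers of other cells and of the handling of cells also differed in part between the groups. For comparison, 5.95% of all genes tested were higher and 4.71% lower at an unadjusted p under 0.05. Neuron markers had a median of 1.12, with 14 of 15 above 0, 9 higher unadjusted and 0 called by edgeR. Their summed level was 29.5 to 445 CPM (median 75.8) without transgenes and 65.0 to 415 CPM (median 317) with them. Immediate-early genes, which respond within minutes to stimulation and to cell dissociation, had a median of −0.50, 17 of 26 lower unadjusted and 0 called. Their sum was 22969 to 40415 CPM without and 11782 to 29314 CPM with transgenes. Neutrophil markers had a median of −0.87 (8 of 12 lower unadjusted, sums 642 to 1006 and 619.8 to 776 CPM), and T and NK cell markers −0.73 (5 of 8). The medians were −0.30 for endothelium, −0.20 for monocytes, 0.016 for astrocytes, 0.20 for oligodendrocytes, 0.047 for border-associated macrophages, −0.059 for B cells, −0.90 for erythroid cells and −0.27 for choroid plexus, with no gene called in any of them by edgeR (at an unadjusted p under 0.05, 0 to 1 higher and 0 to 3 lower in each). DESeq2 called 1 gene each of the immediate-early, neuron, neutrophil and B cell lists. None of the listed markers was at 0 in all 15 libraries, and 8 of 15 T and NK, 5 of 10 B and 7 of 10 erythroid markers had counts high enough to be tested. With the summed neuron markers as a further term 36 genes were called, 26 of the 44 among them. With the summed immediate-early genes as a term 9 were called, of which Cst7, Lpl, Ank, Clec7a, Axl, Baiap2l2, Itgax and Tln2 belonged to the 44. Without NLRP3 replicates 8 and 15 together 36 were called. Beyond these fits, the part of these cells and of handling in the result was not tested.

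**Figure D3:**
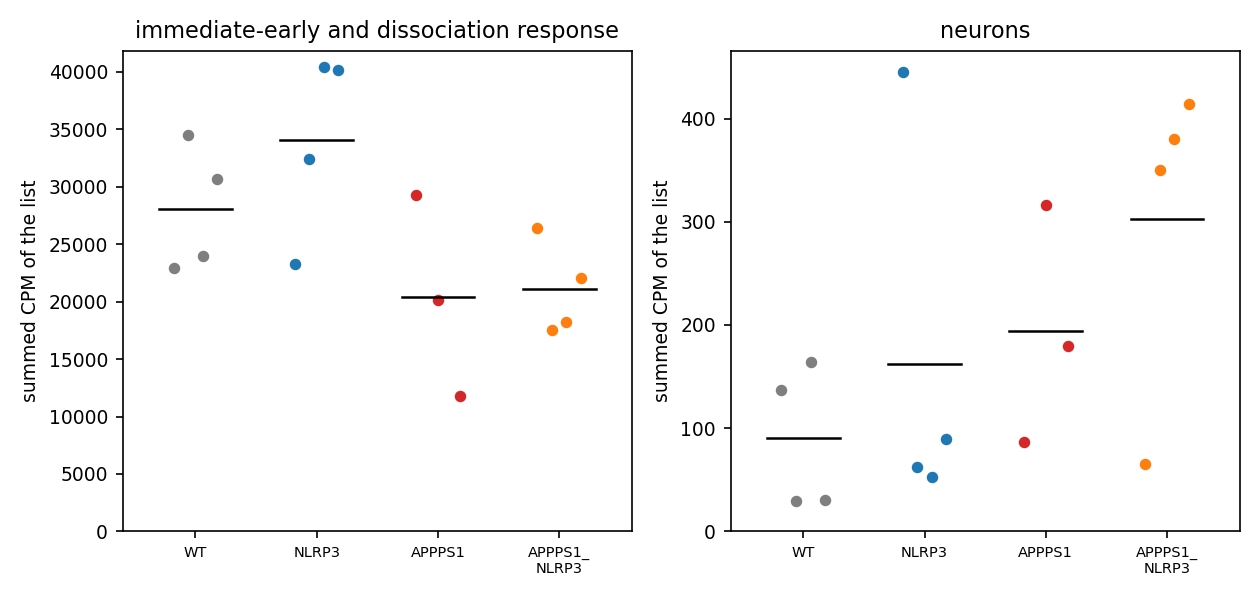
Summed CPM of the immediate-early genes and of the neuron markers in each of the 15 libraries by group, with a line at each group's mean. The sums of immediate-early genes tended to be lower with transgenes (11782 to 29314 CPM against 22969 to 40415 CPM), and NLRP3 replicate 8 lay at 445 CPM of neuron markers.

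The comparison by background asks whether the transgene differences depended on Nlrp3. The 43 called genes other than Gm11868, which had 0 counts in all 4-month libraries lacking Nlrp3, had the same sign with and without Nlrp3, a result partly fixed by the choice of genes on the average of both. In APPPS1 against WT 20 of 17947 genes were called (0.111%), 16 of the 44 among them. In APPPS1_NLRP3 against NLRP3 5 were called (0.0279%), all of the 44, and Cst7, Lpl, Ank and Clec7a were called in both. Cst7 rose by 4.14 ± 0.26 with intact Nlrp3 and by 3.91 ± 0.26 without it, and Lpl by 2.32 ± 0.23 and 2.43 ± 0.22. Of the 42 called rises 34 were larger with intact Nlrp3 than without it. The median of the disease-associated list was 0.37 with intact Nlrp3 and 0.22 without it.

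No gene had an interaction past the threshold by edgeR (0 of 17947, 0%; 698 at an unadjusted p under 0.05, and 3 by DESeq2). Without NLRP3 replicate 8 edgeR called 1. The smallest adjusted interaction p was 0.922. Of the 44 genes Bcl2a1d, Ccl6 and Pdcd1 had an unadjusted interaction p under 0.05. Bcl2a1d, an inhibitor of cell death, lay at 7.86, 14.8, 7.65 and 8.61 CPM in WT, 14.95, 8.97, 10.3 and 13.7 CPM in NLRP3, 41.8, 46.03 and 45.2 CPM in APPPS1 and 14.1, 20.8, 20.3 and 14.4 CPM in APPPS1_NLRP3. The 3 APPPS1 libraries were above all others, and the APPPS1_NLRP3 libraries overlapped the nontransgenic ones. Its difference was 2.24 ± 0.23 with intact Nlrp3 and 0.52 ± 0.21 without it, an interaction of −1.72 ± 0.31 (unadjusted p = 5.22e-05). Bcl2a1d lost its pooled call (adjusted p = 0.0392) without any of 11 libraries, and has near-identical copies. The interactions of Ccl6 and Pdcd1 were −0.66 ± 0.19 and −1.09 ± 0.35. Atp2c1 and Tex11, outside the 44, had interactions of 0.69 ± 0.13 and 5.76 ± 1.302.

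**Figure D4:**
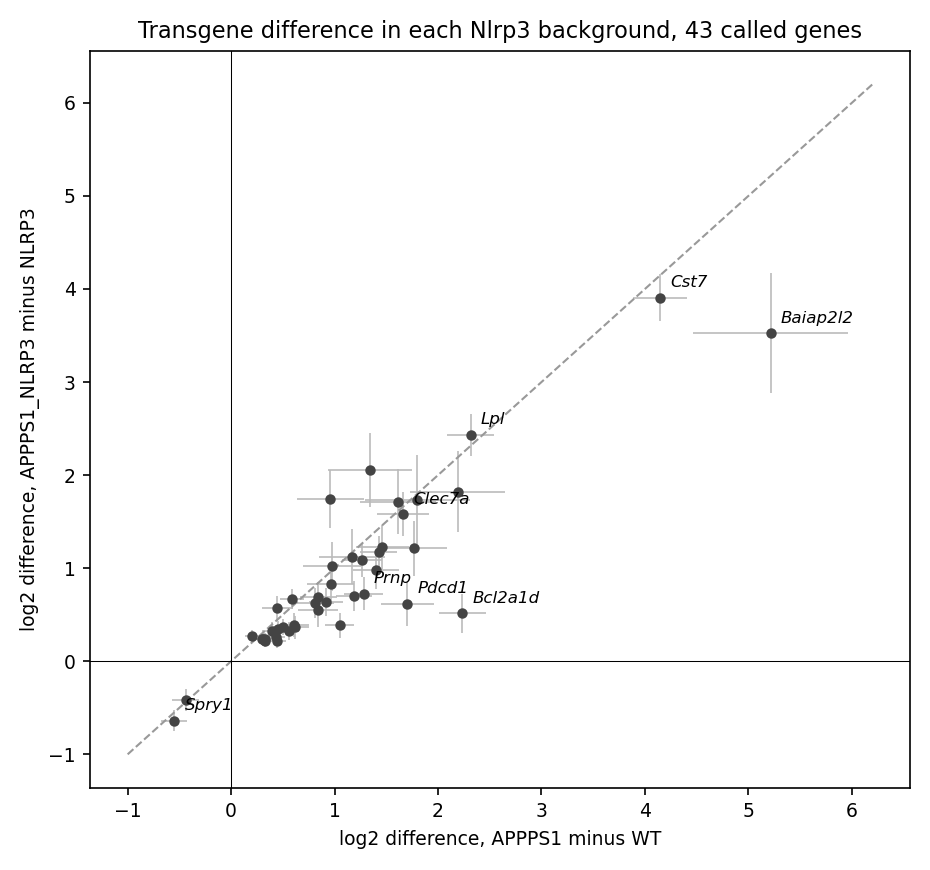
Log2 transgene difference of 43 called genes with intact Nlrp3 (APPPS1 minus WT) against that without Nlrp3 (APPPS1_NLRP3 minus NLRP3), with SE bars and a dashed line of equality. Gm11868 is left out, and Cst7 lies at 4.14 with intact Nlrp3 and 3.91 without it.

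The later ages show what became of these genes. In a fit over 48 untagged libraries of 4, 6 and 12 months, each age with its own nontransgenic libraries, 42 of the 44 were called in the same direction at 6 months and 42 at 12 months. Over all 19628 genes tested, 8.3% were higher and 5.2% lower at 6 months, and 14.7% and 11.1% at 12 months. The exceptions were Gm11868 and Id2 at 6 months, and Spry1 and Id2 at 12 months. The 42 genes were 95.5% of the 4-month calls, 1.58% of the 2651 genes called at 6 months and 0.828% of the 5070 called at 12 months. The median of 41 rises, leaving out Gm11868, was 0.91 at 4 months, 2.05 at 6 months and 2.67 at 12 months. The difference between ages was called and larger at 6 months for 33 of the 44 (2.05% of all genes called) and at 12 months for 37 (12% of all genes called). Both age differences share the 4-month libraries.

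Cst7 differed by 6.51 at 6 months and 7.19 at 12 months, Lpl by 4.38 and 4.71 and Ank by 3.19 and 3.53. The increase from 4 to 6 months was 2.5 ± 0.31 for Cst7, 2.01 ± 0.25 for Lpl and 1.89 ± 0.21 for Ank. Igf1 differed by 2.87 and 4.02, an increase of 3.295 ± 0.29 from 4 to 12 months. For Prnp no such increase passed the test. It differed by 1.01 at 6 months and 0.50 at 12 months, and its change from 4 to 12 months was −0.49 ± 0.24 (adjusted p = 0.184). Spry1 differed by −0.58 at 6 months and −0.054 at 12 months. Id2 had the opposite change at 12 months, 0.75 ± 0.19 (adjusted p = 0.00518).

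Genes not called at 4 months had larger transgene differences later. That of Apoe changed by 2.501 ± 0.23 from 4 to 12 months (adjusted p = 3.10e-10), Hif1a by 1.09 ± 0.12 to 6 months and 1.72 ± 0.12 to 12 months, and Ctsb, a lysosomal protease, by 0.92 ± 0.11 to 6 months. Of the disease-associated list 39 of 41 genes were called higher at 6 months and 40 at 12 months. The interferon list went from 0 of 28 at 4 months to 15 at 6 and 27 at 12 months, the ribosomal list from 0 of 26 to 26 and 26, and the cell cycle list from 0 of 33 to 25 higher and 24 higher with 1 lower. Of 24 homeostatic genes 6 were called lower and 2 higher at 6 months, and 14 lower and 3 higher at 12 months. The shares over all genes tested were 8.3% higher and 5.2% lower at 6 months, and 14.7% and 11.1% at 12 months. Sex differed between the groups at later ages: by Xist and Y-linked genes the 12-month WT and APPPS1 libraries were female and those lacking Nlrp3 male, so each transgene difference stayed within 1 sex at 12 months, while at 6 months 1 of 4 NLRP3 and 3 of 5 APPPS1_NLRP3 libraries were male.

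**Figure D5:**
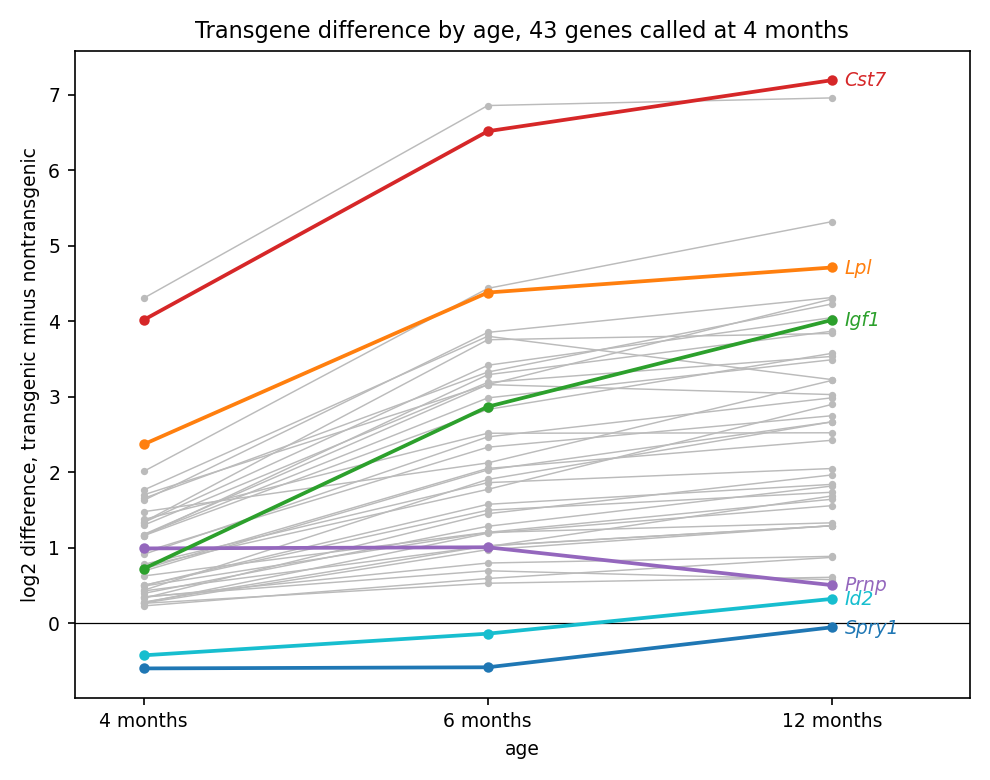
Log2 transgene difference of 43 called genes at 4, 6 and 12 months, all from the fit over the 3 ages, with a line for each gene. The median rise goes from 0.91 to 2.05 and 2.67, while Prnp, Spry1 and Id2 do not follow that increase.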

How the data were processed

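RNA-seq was analysed for 15 libraries of brain CD11b+ cells at 4 months, with the later untagged libraries for comparison. Per the labels' protocols, RNA was isolated with a miRNA easy kit, libraries were made from 10 ng with SMART-Seq v4, which does not mark strand, in 2 batches and pools of 7 to 8, and sequenced as paired reads of 125 bp. The deposited values are whole-number counts per gene, for which the authors used Trimmomatic, TopHat and HTSeq with mm10, per the submitters' processing notes, which give no versions. No molecular identifiers are named, so counts and floors cover counting error only.

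Counts were fitted with edgeR 4.0.16 in R 4.3.3 (TMM, filterByExpr with a minimum count of 10 and total of 15, quasi-likelihood F test, two-sided, Benjamini-Hochberg over all genes kept, called under 0.05), with terms for the transgenes, Nlrp3 and the second title number (11 residual degrees of freedom). Standard errors were derived from each log2 difference and its F statistic. Levels are CPM with TMM factors, except those of the tagged libraries, which are scaled to total counts alone. The interaction came from a fit with 4 group terms, and the age differences from 48 untagged libraries with at least 100000 counts, which leaves out 1 library of 659 counts. DESeq2 1.42.0 was an alternative. Others were further size factors, filters, terms and subsets of libraries, and leaving out each library. The fits were tested on simulated counts. A fold against a group at 0 uses a floor of 3 counts over the group. The 21 pairs of libraries within a group differed by more than sampling noise (chi-square per degree of freedom 9.01 or more).

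Genes named were those called (the 30 with the smallest p by the rule, the other 14 added because they are members of the call set), the next 10 by p, a fixed set (1 gene of which is not reported here), up to 4 per list and the leading genes of the interaction and age differences. Members and lists were chosen with earlier results of these data known. Symbols were paired with 53620 of 53801 gene identifiers, and positions are from GENCODE on GRCm38. Sequences are from RefSeq. Tagged 12-month libraries were used in the closing observations and in 1 alternative only.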

Additional observations from a re-analysis of the deposited data

Results flagged for a closer look

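In 9 of the 171 groups of 4 libraries examined, 1 library lay far from the other 3, and chance marks about 1 group in 20. Among the called genes, Cpd was at 70.4 CPM in WT replicate 1 against 59.8 to 61.4 CPM in the other WT libraries, Igf1 at 17.3 CPM in WT replicate 7 against 10.6 to 11.5 CPM, and Bcl2a1d at 14.8 CPM in WT replicate 4 against 7.65 to 8.61 CPM. Etl4 was at 9.88 CPM in APPPS1_NLRP3 replicate 13 against 5.597 to 6.29 CPM in the others of that group.

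Among summed markers, NLRP3 replicate 8 held 445 CPM of neuron markers (53.2 to 89.4 CPM in the others), and WT replicate 4 held 34.6 CPM of T and NK cell markers (14.9 to 17.8 CPM) and 34.7 CPM of erythroid markers (109.7 to 116 CPM). NLRP3 replicate 15 held 365 CPM of erythroid markers (68.5 to 87.4 CPM) and 2402 CPM of pituitary markers (0.355 to 0.739 CPM).

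The transgene difference itself differed between ages: it was larger at 6 months than at 4 months for 33 of the 44 genes and at 12 months for 37, and it changed in the opposite direction at 12 months for 1, Id2. The 13 tagged 12-month libraries entered none of the comparisons above, though 1 alternative fit took in all 62 libraries. In the tagged libraries Cst7 had a median of 1448 CPM in the 7 with APPPS1 (lowest 10.3 CPM). In the 6 tagged libraries without APPPS1 the median was 19.99 CPM (highest 32.7 CPM). These tagged levels were scaled to total counts without TMM factors, unlike the 4-month levels above.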

How the results depend on the processing

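No paired analysis was possible because the replicate number, the last of the title numbers, belongs to 1 library each; the first title number recurs across groups, its meaning is not given, and it was tried as a term. Of the values for the 44 called genes over the settings run, 833 kept their call, 478 kept their direction without the call and 0 reversed. Against 44 genes in the pooled comparison, 895 were called with no filter on low counts, 6 with the first title number as a term, 154 with DESeq2, 11 with all 62 libraries in the fit (9 of the 44), 2 in the libraries of second title number 1 and 624 in those of number 2, 13 with intact Nlrp3 alone, 2 without Nlrp3 alone and 9 with summed immediate-early genes as a term, which was chosen after seeing the data, as were the neuron term and the fit without NLRP3 replicates 8 and 15. The fit over all 62 libraries also took in the tagged libraries and the library of 659 counts. Leaving out 1 library gave 23 to 67. For the interaction, with 0 called, 65 were called with no filter, 3 with DESeq2, 1 and 49 within second title numbers 1 and 2, and 0 to 1 leaving out a library (1 without NLRP3 replicate 8). For 6 minus 4 months, 402 became 830 with no filter and 294 to 500 leaving out a library, and for 12 minus 4 months 2350 became 1820 to 3084. The cause was not tested.

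Among genes that were not called, the sign turned for Nlrp3 within second title number 2 (−0.28), Thy1 within number 1 (−0.45) and with the neuron term (−0.24), and Trem2 without Nlrp3 alone (−0.11). Cx3cr1 turned with the first title number (−0.037), within number 2 (−0.030), with intact Nlrp3 alone (−0.059) and without NLRP3 replicates 8 and 15 (−0.048). Ccl3 and Ccl4 turned within number 1 (0.082 and 0.17), with intact Nlrp3 alone (0.055 and 0.013) and with the immediate-early term (0.099 and 0.14). Leaving out a library gave −0.079 to 0.23 for Nlrp3 and −0.0030 to 0.057 for Cx3cr1.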

Other observations

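Lamr1-ps1, singled out after its values were seen, is a processed pseudogene at chr2:131904086-131904959 (plus strand, GRCm38), which ends 4968 bases before the start of Prnp. It had 0 counts in all 30 libraries without APPPS1 and counts above 0 in 23 of 31 with it, over all ages and tags. At 4 months every one of the 7 transgenic libraries had counts, 111 in all, and the 8 others had 0, at least 41.1-fold higher against a floor of 3 counts over the group. The levels, in replicate order, were 0.178, 1.17 and 0.106 CPM in APPPS1 and 0.109, 1.05, 1.69 and 1.45 CPM in APPPS1_NLRP3. Summed neuron markers in the same libraries were 86.7, 316.7 and 179.5 CPM, and 65, 349.9, 379.8 and 414.5 CPM. NLRP3 replicate 8, at 444.9 CPM of neuron markers, had 0 counts of Lamr1-ps1. A link between them was not tested. By edgeR the adjusted p of Lamr1-ps1 was 0.0779, so it was not among the called genes.

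Gm11868, also singled out after its values were seen, was present in all 3 libraries of APPPS1 at 6 months (65 to 106 counts) and all 5 at 12 months (25 to 105 counts), and had 0 counts in the 5 of APPPS1_NLRP3 at 6 months. At 12 months 1 of 4 APPPS1_NLRP3 libraries had 105 counts, and 1 of 3 tagged wild-type libraries had 76. Of the 4 tagged APPPS1 libraries 2 had counts above 0 (range 0 to 85 counts), and the 3 tagged APPPS1_NLRP3 libraries had 0.

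The near-identical copies of Bcl2a1d did not move with it at 4 months: Bcl2a1a differed by 0.22 ± 0.15 (adjusted p = 0.629) and Bcl2a1b by −0.12 ± 0.083 (adjusted p = 0.615), where Bcl2a1d rose by 1.33 ± 0.26 (adjusted p = 0.0392, edgeR). How reads shared by the 3 copies were counted is not given in the sources used here.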
